A study of Homo sapiens with 6 samples.

Results

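The miRNAs described here are 10 that are known from blood cells, measured in small RNA libraries of extracellular vesicles (EVs) shed by MDA-MB-231, an established human line of triple-negative breast cancer. They were chosen by name, with earlier results of these data known. hsa-miR-451a, hsa-miR-486-5p, hsa-miR-144-3p and hsa-miR-144-5p are of red cells, and hsa-miR-126-3p and hsa-miR-126-5p of endothelium and platelets. hsa-miR-150-5p, hsa-miR-223-3p, hsa-miR-142-3p and hsa-miR-142-5p are of leukocytes and platelets. All 10 were found among the 832 miRNAs of the table. The groups were EVs of unmodified MDA-MB-231 cells, genotype WT (231 EV, n = 3), and EVs of the same line after knockdown of ACO1, an iron-responsive RNA binding protein (231 ACO1KD EV, n = 3). The comparison of these groups asks how EV miRNA levels differ after ACO1 knockdown. Cells of both groups were maintained in DMEM with fetal bovine serum, and their EVs were pelleted by ultracentrifugation from medium described as EV-free. The table holds miRNAs only, so the level of ACO1 itself was not checked here. How ACO1 was knocked down in these cells is not given in the sources used here, nor is it said whether the libraries of a group came from separate cultures, so that the spread between them may be technical.

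Red cell precursors transcribe MIR144 and MIR451A together, and miR-451a is cut by AGO2 without Dicer and is among the most abundant miRNAs of red cells, as is miR-486-5p. The miR-126 hairpin lies in EGFL7, a gene of endothelial cells, and is also active in megakaryocytes, from which platelets derive. miR-150-5p marks mature lymphocytes, miR-223-3p granulocytes and other myeloid cells, and both arms of miR-142 nearly all cells of the blood lineage, while cells of epithelial origin are known to hold little of these. In serum and plasma, miR-451a and miR-486-5p rise when red cells lyse, and miR-23a-3p is a customary reference because it does not.

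Mature sequences of 7 of the 10 are shown as given in RefSeq (GRCh38.p14). The seed, bases 2 to 8 from the 5′ end and here in capitals, sets most of the targets of a miRNA. hsa-miR-451a, hsa-miR-486-5p and hsa-miR-150-5p are named only.
hsa-miR-144-3p: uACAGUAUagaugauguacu
hsa-miR-144-5p: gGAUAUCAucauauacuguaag
hsa-miR-126-3p: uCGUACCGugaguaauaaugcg
hsa-miR-126-5p: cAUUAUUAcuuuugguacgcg
hsa-miR-223-3p: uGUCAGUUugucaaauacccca
hsa-miR-142-3p: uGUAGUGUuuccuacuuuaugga
hsa-miR-142-5p: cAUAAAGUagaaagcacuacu
They are 20 to 23 nt long and hold 7 different seeds. Among miRNAs of the table with a RefSeq sequence, 0 others carried any of the 7 seeds. miRNAs without such a sequence could not be compared. In GENCODE 29 on GRCh38, MIR144 (chromosome 17, 28861533 to 28861618, minus strand) and MIR451A (chromosome 17, 28861369 to 28861440, minus strand) are 92 bases apart within the gene AC024267.1. MIR126 (chromosome 9, 136670602 to 136670686, plus strand) lies in an intron of EGFL7, and MIR142 (chromosome 17, 58331232 to 58331318, minus strand) and MIR223 (chromosome X, 66018870 to 66018979, plus strand) lie within the genes AC004687.1 and AL034397.3. MIR150 (chromosome 19, 49500785 to 49500868, minus strand) overlaps no other gene on its strand.

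Total counts were 224948 to 230562 in 231 EV and 175924, 67873 and 157322 in 231 ACO1KD EV replicates 1, 2 and 3, so replicate 2 of the knockdown group is the shallowest library. TPM, the unit of the table, is here the part of a library that a miRNA holds, scaled alike in every library and with no length term. The 6 miRNAs looked up as known to be abundant in MDA-MB-231 cells (hsa-miR-21-5p, hsa-miR-100-5p, hsa-miR-125b-5p, hsa-miR-29a-3p, hsa-miR-221-3p and hsa-miR-222-3p) held 45.5% to 48.4% of the counts in 231 EV and 31.2% to 37.4% in 231 ACO1KD EV, and 5 epithelial miRNAs that this mesenchymal line is known to hold little of, held 0.0698% to 0.0818% and 0.0472% to 0.0788%. Of these 5, hsa-miR-205-5p had the highest count in each library (109 to 121 in 231 EV, 17 to 82 in 231 ACO1KD EV) and was lower (log2 fold change -0.93 with TMM, edgeR BH-adjusted p = 0.00749), and the other 4 did not pass the test. hsa-miR-21-5p alone held 28.5% to 31.2% of the counts in 231 EV and 11.7% to 18.4% in 231 ACO1KD EV, and since shares are parts of a fixed whole, those of the other miRNAs together must rise by as much. Changes are given after TMM scaling, which is set by the bulk of the miRNAs, and with library totals beside it. A chi-square of counts between 2 libraries grows with depth, so pairs with the shallow knockdown replicate 2 give lower values. This chi-square was 975 to 1242 among the controls and 1890 on 212 degrees of freedom between knockdown replicates 1 and 2. 231 ACO1KD EV replicate 3 stood apart from its group, at 6614 on 235 degrees of freedom against replicate 1 and 4681 on 213 against replicate 2. It was nearer to the controls in hsa-miR-21-5p (18.4% of its counts, beside 12.2% and 11.7% in replicates 1 and 2) and in hsa-miR-100-5p (2.98%, beside 1.80% and 1.97%, and 3.05% to 3.59% in 231 EV), and its part in the results was measured by leaving it out. Without it, log2 fold changes with TMM were -1.06 for hsa-miR-451a, -1.17 for hsa-miR-486-5p, 0.60 for hsa-miR-126-3p, 0.51 for hsa-miR-126-5p, 0.71 for hsa-miR-150-5p and 0.62 for hsa-miR-223-3p, and the edgeR BH-adjusted p of these 6 was at most 0.00803. Fewer EVs that carry a miRNA and fewer copies per EV cannot be told apart in these libraries.

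The 10 miRNAs together made up 2.35%, 2.26% and 2.08% of the counts of 231 EV replicates 1, 2 and 3. In 231 ACO1KD EV replicates 1, 2 and 3 they made up 3.72%, 3.72% and 3.27%. All 3 knockdown libraries thus lay above all 3 control libraries, with means of 2.23% ± 0.134 (SD, n = 3) and 3.57% ± 0.263 (SD, n = 3). The widest 95% Wilson interval of these shares, that of 231 ACO1KD EV replicate 2, was 3.58% to 3.87% and covers counting error only. With hsa-miR-21-5p left out of the totals, the means were 3.18% ± 0.17 (SD, n = 3) and 4.15% ± 0.129 (SD, n = 3), so the groups remained apart and the ratio of the means fell from 1.60 to 1.31. Without 231 ACO1KD EV replicate 3 the difference of the means over all counts was 1.49 percentage points, beside 1.34 with it.

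The classes did not move together. The 4 red cell miRNAs held 0.257% ± 0.00925 (SD, n = 3) of the counts in 231 EV and 0.188% ± 0.0265 (SD, n = 3) in 231 ACO1KD EV, and the highest knockdown library (0.212%) was below the lowest control library (0.250%). The 2 arms of miR-126 held 1.06% ± 0.0621 (SD, n = 3) against 1.93% ± 0.193 (SD, n = 3). The 4 leukocyte miRNAs held 0.910% ± 0.0785 (SD, n = 3) against 1.45% ± 0.0929 (SD, n = 3). Among the counts of the 10 miRNAs, which need no scaling, the red cell miRNAs made up 10.7%, 11.9% and 12.2% in 231 EV and 4.29%, 5.14% and 6.50% in 231 ACO1KD EV. The leukocyte miRNAs kept 39.4% to 41.8% in 231 EV and 39.9% to 41.1% in 231 ACO1KD EV, while miR-126 went from 46.3% to 48.5% up to 52.4% to 54.9%.

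The order of the levels was nearly the same in both groups. hsa-miR-126-3p was the highest of the 10 in every library, at rank 18, 18 and 19 of all miRNAs in 231 EV and rank 15, 14 and 18 in 231 ACO1KD EV. In the shallowest library it stood between hsa-miR-103a-3p with 1155 counts and hsa-miR-30a-5p with 893 counts. In 231 EV it was followed by hsa-miR-142-3p, hsa-miR-126-5p, hsa-miR-223-3p, hsa-miR-142-5p and hsa-miR-451a, and the TPM ranges of neighbours in this order did not overlap. Below these, hsa-miR-486-5p, hsa-miR-150-5p, hsa-miR-144-5p and hsa-miR-144-3p followed, and each of these neighbours overlapped the next. In 231 ACO1KD EV, hsa-miR-150-5p stood above hsa-miR-451a, with ranges that did not overlap (lowest 1046 TPM against highest 985 TPM), which is the reverse of their order in 231 EV. The ranges of hsa-miR-142-3p and hsa-miR-126-5p overlapped there, as did those of hsa-miR-144-5p and hsa-miR-486-5p and those of hsa-miR-486-5p and hsa-miR-144-3p.

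All 10 miRNAs were among the 517 that had counts in 3 or more libraries. These were compared by the quasi-likelihood test of edgeR, adjusted by Benjamini-Hochberg (BH). At an adjusted p below 0.05 and with TMM scaling, 2 of the 10 were lower in 231 ACO1KD EV and 4 were higher, where 6.0% of the tested miRNAs were lower and 2.51% higher. With library totals, the same 2 were lower and 6 were higher, where 2.51% and 11.2% of the tested miRNAs were. In fits with TMM that left out 231 EV replicate 1, 2 or 3, the number of the 10 that were higher was 1, 0 and 0, while over all miRNAs 7 of 480, 7 of 484 and 5 of 482 were higher. Without 231 ACO1KD EV replicate 1 it was 2, where 14 of 484 miRNAs were higher. Without 231 EV replicate 3 the number of the 10 that were lower was 1, where 14 of 482 miRNAs were lower. The log2 fold changes of the 4 miRNAs that rose stayed above 0 in each of these fits and are given with each miRNA. Without 231 ACO1KD EV replicate 3, 3 of the 10 were lower and 5 higher, where 40 and 25 of 476 miRNAs were. The median log2 fold change of the 10 was 0.24 with TMM and 0.59 with library totals, beside -0.03 and 0.32 over all tested miRNAs. On the TPM scale 2 of the 10 had all knockdown libraries below all control libraries and 6 had them above, where this held for 5.80% and 22.6% of the tested miRNAs. After TMM scaling the numbers were 2 and 5, where it held for 12.8% and 11.6%.

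Of the red cell miRNAs, hsa-miR-451a and hsa-miR-486-5p fell and neither arm of miR-144 passed the test. hsa-miR-451a, which in red cells restrains the signalling adaptor YWHAZ, had 1396, 1284 and 1311 TPM in 231 EV replicates 1, 2 and 3 and 733, 943 and 985 TPM in 231 ACO1KD EV replicates 1, 2 and 3. The highest knockdown library lay below the lowest control library, with 64 to 155 counts against 295 to 314. Its log2 fold change with TMM was -0.94 (SE 0.20, edgeR BH-adjusted p = 0.000136), and with library totals it was -0.59 (edgeR BH-adjusted p = 0.0326). It was past the threshold in all 13 alternative settings, including each of the 6 fits without 1 library.

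hsa-miR-486-5p, a miRNA of red cells and muscle encoded in ANK1, had 431, 520 and 636 TPM in 231 EV and 273, 354 and 343 TPM in 231 ACO1KD EV. The groups did not overlap, but the counts were small, at 97 to 143 against 24 to 54. The fitted log2 fold change with TMM was -1.08 (SE 0.26, edgeR BH-adjusted p = 0.000928), and with library totals it was -0.72 (edgeR BH-adjusted p = 0.042). Without 231 EV replicate 3, the control library with the highest value, the edgeR BH-adjusted p was 0.0803, with a log2 fold change of -0.89. The muscle miRNAs hsa-miR-1-3p, hsa-miR-133a-3p and hsa-miR-206, which share a tissue with miR-486, had at most 16, 5 and 3 counts in any library, and 0 of the 2 that could be tested passed.

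hsa-miR-144-3p, the arm of the transcript shared with hsa-miR-451a that is known for repressing the oxidative stress regulator NRF2, had 182, 364 and 231 TPM in 231 EV and 250, 221 and 305 TPM in 231 ACO1KD EV. The groups overlapped and their means were 259 and 259 TPM, with a coefficient of variation of 36.4% in 231 EV where counting alone would give 13.0%. Its log2 fold change was -0.33 with TMM (SE 0.28, edgeR BH-adjusted p = 0.654) and 0.018 with library totals, so its direction turns with the scaling. hsa-miR-144-5p had 493, 507 and 356 TPM against 341, 398 and 489 TPM, which likewise overlapped. On the log2 scale its change with TMM was -0.48 (SE 0.25, edgeR BH-adjusted p = 0.274), and it was past the threshold in 1 fit, that without 231 ACO1KD EV replicate 3 (edgeR BH-adjusted p = 0.0499). The 3p arm rests on 15 to 84 counts per library and the 5p arm on 27 to 117.

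The neighbours of these hairpins gave almost no reads. Of 6 other arms and cluster neighbours that were looked up, 2 were in the table. hsa-miR-486-3p had 0 counts in 5 libraries and 1 in 231 ACO1KD EV replicate 3, and hsa-miR-223-5p had 1 to 7 counts per library. A count of 0 allows for up to 3 counts, which correspond to TPM of 13.0 to 13.3 in control libraries and of 17.1, 44.2 and 19.1 in knockdown replicates 1, 2 and 3. In the shallowest library, hsa-miR-486-5p itself has only 24 counts, so the share of its other arm is poorly bounded there.

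Both arms of miR-126 rose. hsa-miR-126-3p, which in endothelial cells lowers the VEGF signalling inhibitor SPRED1, had 8109, 7282 and 7031 TPM in 231 EV and 14324, 15072 and 11906 TPM in 231 ACO1KD EV. All knockdown libraries lay above all control libraries, and the lowest count was 1023, so that counting error is small beside the spread between libraries. The log2 fold change with TMM was 0.52 (SE 0.14, edgeR BH-adjusted p = 0.00509), and with library totals it was 0.88 (edgeR BH-adjusted p = 1.5e-08). Without 231 EV replicate 2 the edgeR BH-adjusted p was 0.0554 and without 231 EV replicate 3 it was 0.0502, with log2 fold changes of 0.50 and 0.51.

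hsa-miR-126-5p, from the other arm of the hairpin, had 3196, 3166 and 3067 TPM in 231 EV and 6128, 5392 and 5219 TPM in 231 ACO1KD EV. The 3 control libraries differed by less than counting error would give (coefficient of variation 2.16%, beside 3.75% from counting alone), and all knockdown libraries were higher. Its log2 fold change with TMM was 0.47 (SE 0.16, edgeR BH-adjusted p = 0.0295), and with library totals it was 0.83 (edgeR BH-adjusted p = 5.61e-06). The call was lost without 231 EV replicate 1, 2 or 3 (edgeR BH-adjusted p = 0.137, 0.150 and 0.122), without 231 ACO1KD EV replicate 1 (0.120) and with no filter on low counts (0.0561). The log2 fold change in these fits was 0.47, 0.47, 0.49, 0.40 and 0.48.

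Among the leukocyte miRNAs, hsa-miR-150-5p and hsa-miR-223-3p rose and the arms of miR-142 did not pass the test with TMM. hsa-miR-150-5p, which in lymphocytes represses the transcription factor MYB, had 573, 421 and 520 TPM in 231 EV and 1046, 1090 and 1055 TPM in 231 ACO1KD EV. The knockdown libraries were above every control library. Among the knockdown libraries the spread was smaller than counting error would give (coefficient of variation 2.20%, beside 9.20% from counting alone). The fitted log2 fold change with TMM was 0.72 (SE 0.23, edgeR BH-adjusted p = 0.0215), the highest of the 10, and with library totals it was 1.07 (edgeR BH-adjusted p = 7.70e-05). Without 231 EV replicate 1, 2 or 3 the edgeR BH-adjusted p was 0.0562, 0.206 and 0.0888, with log2 fold changes of 0.80, 0.60 and 0.78.

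hsa-miR-223-3p, a regulator of granulocyte development, had 2743, 2464 and 2231 TPM in 231 EV and 4996, 4862 and 3731 TPM in 231 ACO1KD EV. The groups did not overlap, and 231 ACO1KD EV replicate 3 was the lowest of its group. On the log2 scale its change with TMM was 0.51 (SE 0.16, edgeR BH-adjusted p = 0.0226), and with library totals it was 0.87 (edgeR BH-adjusted p = 4.51e-06). Without 231 EV replicate 1, 2 or 3 the edgeR BH-adjusted p was 0.0601, 0.141 and 0.153, with log2 fold changes of 0.58, 0.50 and 0.47. Without 231 ACO1KD EV replicate 1 it was 0.111, with a log2 fold change of 0.43.

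hsa-miR-142-3p, found across the blood lineage, had 4468, 4658 and 3813 TPM in 231 EV and 5610, 6055 and 6058 TPM in 231 ACO1KD EV. The groups were apart on this scale but overlapped after TMM scaling, where its log2 fold change was 0.10 (SE 0.15, edgeR BH-adjusted p = 0.799). With library totals it was 0.45 (edgeR BH-adjusted p = 0.0256). hsa-miR-142-5p had 1876, 1887 and 1636 TPM against 3519, 2858 and 2587 TPM, which did not overlap on either scale. The log2 fold change was 0.38 with TMM (SE 0.17, edgeR BH-adjusted p = 0.166) and 0.73 with library totals (edgeR BH-adjusted p = 0.00043). Without 231 ACO1KD EV replicate 3, the lowest of its group, the edgeR BH-adjusted p with TMM was 0.0153.

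**Figure D1:**
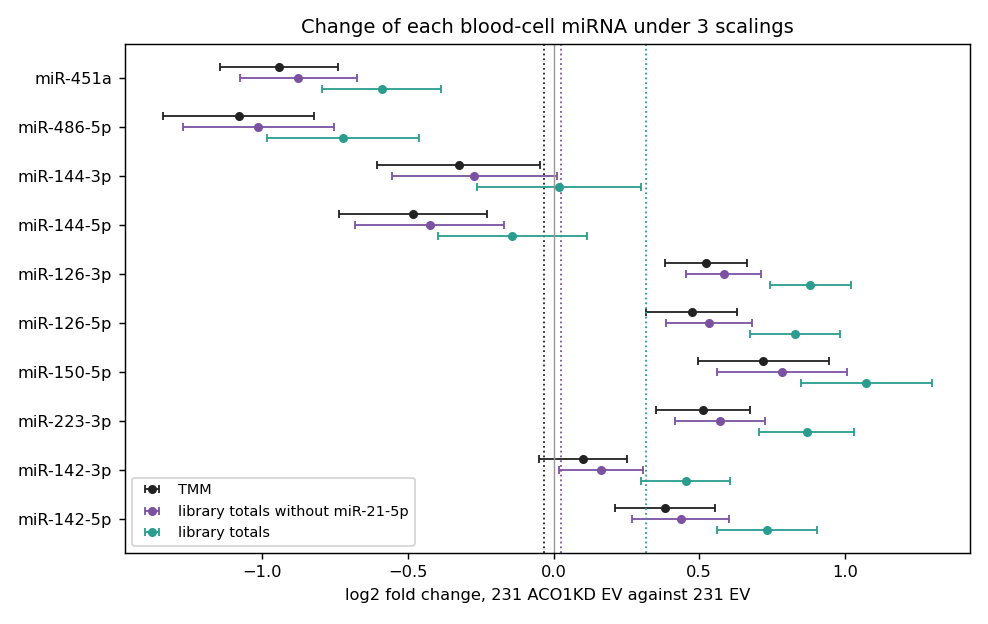
log2 fold change of 231 ACO1KD EV against 231 EV for each of the 10 miRNAs by edgeR with TMM scaling, with library totals without hsa-miR-21-5p, and with library totals; bars are standard errors and dotted lines are the medians of all 517 tested miRNAs (-0.03, 0.026 and 0.32). hsa-miR-451a and hsa-miR-486-5p lie below 0 and both arms of miR-126, hsa-miR-150-5p and hsa-miR-223-3p above 0 under the 3 scalings, while hsa-miR-144-3p changes sign.

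Ratios of counts within a library do not depend on scaling, and 9 were tested on the log2 scale by exact permutation (two-sided), in which 3 libraries against 3 allow no p under 0.1. The ratio of hsa-miR-451a to hsa-miR-486-5p was 3.24, 2.47 and 2.06 in 231 EV and 2.69, 2.67 and 2.87 in 231 ACO1KD EV, which overlapped, so the fall of the red cell pair left their proportion within the spread of the controls (exact permutation p = 0.7, Benjamini-Hochberg 0.787 over 9 ratios). hsa-miR-144-3p to hsa-miR-451a, arms of a shared transcript, was 0.131, 0.284 and 0.176 against 0.341, 0.234 and 0.31 and overlapped as well (exact permutation p = 0.2, adjusted 0.3). Proportions of the arms of a hairpin overlapped between the groups. hsa-miR-126-3p was 2.54, 2.30 and 2.29 times as frequent as hsa-miR-126-5p in 231 EV and 2.34, 2.80 and 2.28 times in 231 ACO1KD EV, with a difference of 0.052 on the log2 scale (exact permutation p = 0.7, adjusted 0.787). hsa-miR-142-3p was 2.38, 2.47 and 2.33 times as frequent as hsa-miR-142-5p in 231 EV and 1.59, 2.12 and 2.34 times in 231 ACO1KD EV, where replicate 1 stood apart and the groups overlapped (exact permutation p = 0.2, adjusted 0.3). For miR-144 the 5p arm was the more frequent in every library, and the 3p to 5p ratio was 0.369 to 0.718 against 0.556 to 0.733 (exact permutation p = 0.8, adjusted 0.8).

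The remaining 4 ratios did not overlap between the groups, and each had an exact permutation p of 0.1, the smallest that this design allows, and an adjusted value of 0.225. hsa-miR-126-3p was 18.8, 13.99 and 11.1 times as frequent as hsa-miR-486-5p in 231 EV and 52.5, 42.6 and 34.7 times in 231 ACO1KD EV, a 2.99-fold higher ratio. This pair sets a miRNA that rose against a miRNA that fell in the same libraries, so its ratio restates those changes. hsa-miR-223-3p to hsa-miR-142-3p rose from 0.614, 0.529 and 0.585 to 0.891, 0.803 and 0.616, a 1.32-fold higher ratio in which the lowest knockdown library almost met the highest control library. hsa-miR-486-5p stood at a count for every 160, 125.96 and 111 counts of hsa-miR-16-5p, a miRNA of red cells that is also made in most other cells, in 231 EV, and for every 345, 250.2 and 213 counts in 231 ACO1KD EV. hsa-miR-23a-3p was 9.61, 9.96 and 10.09 times as frequent as hsa-miR-451a in 231 EV and 13.9, 11.8 and 14.3 times in 231 ACO1KD EV. The reference of this ratio itself fell, by 0.51 on the log2 scale with TMM (SE 0.14, edgeR BH-adjusted p = 0.0052), so the ratio gives less than the change of hsa-miR-451a.

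As a wider view, 12 further miRNAs that are frequent in blood cells but also made elsewhere were looked up, among them hsa-miR-16-5p, hsa-miR-25-3p, hsa-miR-92a-3p, hsa-miR-93-5p, hsa-miR-155-5p and hsa-miR-342-3p. All of them were in the table, 11 were tested, and 0 passed the threshold in either direction with TMM, with a median log2 fold change of -0.03. Over all tested miRNAs 6.0% were lower and 2.51% higher. After TMM scaling, hsa-miR-342-3p (log2 fold change 0.27) and hsa-miR-199a-3p (0.46, edgeR BH-adjusted p = 0.104) had all knockdown libraries above all control libraries. For hsa-miR-185-5p (-0.24) and hsa-miR-139-5p (-0.84) all knockdown libraries lay below. The 12 held 10.4% to 11.2% of the counts in 231 EV and 12.2% to 14.6% in 231 ACO1KD EV. hsa-miR-155-5p, a miRNA of activated leukocytes, had only 11 to 25 counts in 231 EV and 11 to 13 in 231 ACO1KD EV, and hsa-miR-363-3p, from a cluster active in red cell precursors, had 1 count in all. The liver miRNAs hsa-miR-122-5p, hsa-miR-192-5p and hsa-miR-194-5p, which circulate in serum, held 0.314% to 0.331% and 0.335% to 0.454%, and 0 of the 3 passed the test. Of the 6 miRNAs of the line, 4 fell with TMM (hsa-miR-21-5p, hsa-miR-100-5p, hsa-miR-221-3p and hsa-miR-222-3p) and 0 rose, where 6.0% and 2.51% of all tested miRNAs did. For hsa-miR-222-3p the groups overlapped in TPM. The remaining 2 did not pass, with TMM log2 fold changes of -0.02 for hsa-miR-29a-3p and 0.10 for hsa-miR-125b-5p. On the TPM scale these 2 were higher in every knockdown library than in any control library, so the list did not fall as a group. The table holds no read sequences, so the species and the source of the reads were not tested.

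The miRNAs of most similar pattern over the 6 libraries were found by the root mean square difference of centred log2 TMM-scaled CPM, among 85 others with at least 50 counts in every library. For hsa-miR-451a these were hsa-miR-221-3p (0.175) and hsa-miR-107 (0.181), beside a median of 0.509 over all 85. For hsa-miR-126-3p they were hsa-miR-128-3p (0.0354) and hsa-miR-223-3p (0.0559), and for hsa-miR-223-3p the same pair of others in exchange, hsa-miR-126-3p (0.0559) and hsa-miR-128-3p (0.0723). hsa-miR-126-5p was nearest to hsa-miR-142-5p (0.0942) and hsa-miR-210-3p (0.0943), and hsa-miR-142-5p to hsa-miR-30b-5p (0.0717) and hsa-miR-210-3p (0.0872). hsa-miR-150-5p was nearest to hsa-miR-199a-3p (0.175) and hsa-miR-199b-3p (0.176), which have the same mature sequence in RefSeq and so cannot be told apart by counts, and hsa-miR-142-3p to hsa-miR-27a-3p (0.0755) and hsa-miR-29b-3p (0.0978). hsa-miR-486-5p and both arms of miR-144 had fewer than 50 counts in at least 1 library and were not compared in this way. All these values share the same 6 libraries and scaling factors, and a small difference mainly says that the change between the groups was alike.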

How the data were processed

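A NEBNext kit was used for the small RNA libraries, 3 of 231 EV and 3 of 231 ACO1KD EV. The authors trimmed the reads, kept 18 to 32 nt, discarded reads that hit Rfam, and matched the rest to miRBase, and hg38 and Bowtie2 are named in the submitters' processing notes. The authors deposited raw counts per miRNA and library, with the TPM derived from them (largest departure from count over library total 4.99e-05 TPM). No molecular identifiers are reported, so intervals cover counting error only. All columns were used.

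The counts were scaled by TMM and tested with edgeR 4.0.16 in R 4.3.3 (quasi-likelihood test, no covariates, Benjamini-Hochberg over 517 miRNAs seen in 3 or more libraries). The fit gave all miRNAs a common quasi-dispersion, so p-values are too small for those that vary more than most. SE is the size of the fold change over the root of F. Ratios of 2 counts were computed where both miRNAs had at least 10 counts in every library and were tested by exact permutation (scipy 1.17.1). Scripts were tested on simulated data with log2 changes of 2 in either direction, which are larger than the fold changes of the 10 miRNAs. The miRNAs named are the 10, the fixed lists, the neighbours in rank and the 2 nearest patterns of each. Members and lists were chosen with earlier results of these data known.

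Alternatives were library totals, DESeq2 1.42.0, limma 3.58.1 on log2(TPM + 1), no filter, edgeR's robust option, a replicate block and each library left out. Library totals without hsa-miR-21-5p were added after seeing the data. No pair of replicates was alike within counting noise (chi-square), so each was kept, including 231 ACO1KD EV replicate 3, which was farthest from its group. Hairpin positions are from GENCODE 29 on GRCh38, counted from 1.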

Additional observations from a re-analysis of the deposited data

How the results depend on the processing

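The lower pair, hsa-miR-451a and hsa-miR-486-5p, kept its direction in all 13 alternative settings, as did the 4 miRNAs that rose. Of the 130 fold changes of the 10 miRNAs under these settings, 107 kept direction and side of the threshold, 15 lost the call, 6 gained it and 2 turned, both for hsa-miR-144-3p, to 0.018 with library totals and 0.045 with limma on log2(TPM + 1). The number of all miRNAs past an adjusted p of 0.05 was 44 with TMM, 71 with library totals and 75 with limma. Across the fits without 1 library it went from 19 (without 231 EV replicate 3) to 65 (without 231 ACO1KD EV replicate 3). In these fits 14 to 40 of the 476 to 501 tested miRNAs were lower and 5 to 25 higher. Of the 10, 1 to 3 were lower and 0 to 5 higher. Without 231 EV replicate 1, 2 or 3 and without 231 ACO1KD EV replicate 1, 1, 0, 0 and 2 of the 10 were higher. Over all tested miRNAs 7, 7, 5 and 14 were higher there. These fits hold fewer samples, and the cause was not tested beyond that.

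With hsa-miR-21-5p left out of the totals, the difference in summed share between the groups went from 1.34 to 0.972 percentage points for the 10 miRNAs, from -0.0692 to -0.148 for red cell miRNAs and from 0.539 to 0.387 for leukocyte miRNAs. Without 1 library, the log2 difference of 3 ratios changed sign in at least 1 fit, for hsa-miR-451a to hsa-miR-486-5p from -0.044 to 0.28, for hsa-miR-144-3p to hsa-miR-144-5p from -0.11 to 0.37 and for hsa-miR-126-3p to hsa-miR-126-5p from -0.040 to 0.11. The other 6 ratios kept their direction in these fits and with 1 count added to both miRNAs.

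Same-numbered replicates showed little shared effect (correlations of their deviations from the group means of -0.0552, -0.0413 and 0.121 over 226 miRNAs). The labels do not say whether libraries were prepared in pairs, and these correlations cannot decide it. With a replicate block, 44 of 517 miRNAs passed the threshold, 31 lower and 13 higher. Of the 10, 2 were lower and 4 higher, as without it. Low counts limit the arms of miR-144 and hsa-miR-486-5p most, with 15 to 54 counts for hsa-miR-144-3p and hsa-miR-486-5p over all libraries of 231 ACO1KD EV. The fewest, 15 and 24, were in the shallowest library, replicate 2.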
